A study of Mus musculus with 18 samples.

Results

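The neutrophil genes described here were S100a8, S100a9, Ly6g, Retnlg, Mmp8, Mmp9, Camp, Ngp, Ltf and Csf3r, measured in mouse lung after repeated exposure to a mixture of polycyclic aromatic hydrocarbons (PAHs). They were found on the arrays through the RefSeq accession that each probe carries. This gave a probe for 9 of the 10 genes, and 10 probes in all because Camp had 2, out of 20660 named genes and 55681 probes. Ly6g, the surface antigen most used to recognise mouse neutrophils, was matched by no probe through its accession. A probe annotated only with an Ensembl transcript, which the study's own gene list names Ly6g, is given separately and counted with none of the totals.

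Adult male MutaMouse, a transgenic strain that carries a bacterial lacZ reporter, were about 12 weeks old and received olive oil by gavage daily for 28 days. The oil alone was given to 5 vehicle mice. The 4PAH-Mix, made of benzo[a]pyrene (BaP), benz[a]anthracene, benzo[b]fluoranthene and chrysene, was given at 12.5 (low dose, 4 mice), 25 (medium dose, 5 mice) or 50 (high dose, 4 mice) mg BaP equivalents/kg-bw/day. Lungs were removed 72 h after the last dose, and RNA from random sections was labelled with Cy5 and hybridised with Cy3-labelled reference RNA pooled from 11 mouse cell lines. Each level below is therefore a log2 ratio of lung over reference for 1 mouse on 1 array.

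Neutrophils are short-lived granulocytes that are made in the bone marrow and are held in large numbers in the capillaries of the lung. Their granule proteins are made in order as the cell matures. Peroxidase and serine proteases of the azurophil granules come first. Proteins of the specific granules such as Camp, Ngp and Ltf follow, and then the gelatinase granule protease Mmp9. Circulating neutrophils hold much S100a8 and S100a9 mRNA and little mRNA of the early granule proteins.

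The arrays held a lung profile. All 9 genes of a list that defines lung (Sftpc, Sftpb, Sftpa1, Scgb1a1, Ager, Aqp5, Cldn5, Cdh5 and Foxj1) were well above background on all 18 arrays, with mean log2 ratios of 5.87 to 6.52 per mouse. Between 52.9% and 62.1% of spots were well above background in Cy5. The arrays lay on 3 slides that each held all 4 groups, but each group kept its own column of the slide, so column and group cannot be told apart. The median local Cy5 background was 70 to 73 in vehicle mice and 76.5 to 79 in high-dose mice, without overlap, and its part in any result was not tested. Bulk tissue was measured, so fewer neutrophils and less RNA per neutrophil cannot be told apart.

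A member was called changed where its adjusted p was 0.05 or less (limma, Benjamini-Hochberg over all 55681 probes) and its fold change reached 1.5. At the low dose limma called 0 of 9 members, where 0.0898% of all probes were called in either direction. The medium dose gave 1 of 9, against 0.726% of probes, and the high dose 1 of 9, against 1.2%. In the mean of the 3 exposed groups 1 of 9 was called, against 0.585%. Each time this was Mmp8, which rose. At an unadjusted p under 0.05 limma gave 0 members at the low dose, 2 at the medium (Mmp8 and Csf3r) and 3 at the high (these and S100a8), where 8.01%, 15.3% and 15.7% of all probes passed. The comparisons share the vehicle arrays and are not independent of each other. Without a threshold, the low dose had 6 of 9 members above the vehicle mean, the medium 8 and the high 7, where 51%, 51.3% and 50.8% of all probes did. The median log2 fold change of the 9 was 0.04, 0.19 and 0.26 in that order, and that of all probes was 0.003, 0.004 and 0.003.

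**Figure D1:**
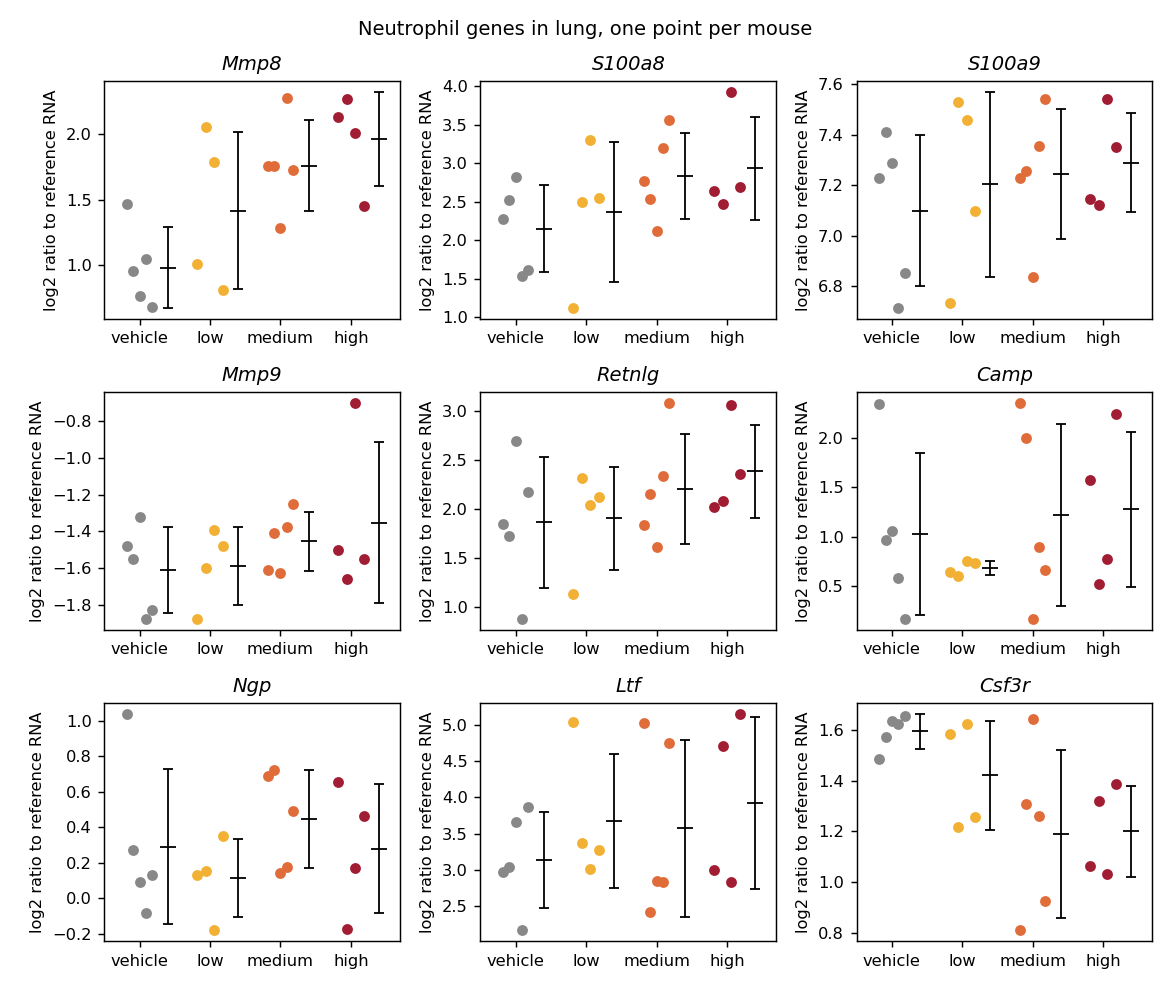
Log2 ratio of lung over reference RNA (vertical axes, each with its own range) for 9 neutrophil genes in vehicle, low, medium and high dose mice. Each point is 1 mouse, and the bar beside the points is the mean with its SD (n = 5, 4, 5 and 4). The Mmp8 group means are 0.98, 1.42, 1.76 and 1.97 from vehicle to high dose, though the doses were not separated from each other. Ltf splits the exposed mice into a high and a low set, and Csf3r lies lower in most exposed mice.

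Mmp8, neutrophil collagenase, is a protease stored in granules that cleaves fibrillar collagen. The bases before its transcription start are shown because Mmp8 was the member that was called. In this and the other promoters printed here, taken from RefSeq, lower case marks the sequence and capitals mark matches to 3 short motifs. These were the C/EBP motif TTGCNNAA or TTNNGCAA, forms that can overlap in the same bases, the PU.1 core GAGGAAGT or ACTTCCTC, and the TATA box TATAAA or TTTATA, each searched on both strands over 250 bases before the start.
Mmp8, GRCm38.p6 chr9:7558179-7558428, + strand: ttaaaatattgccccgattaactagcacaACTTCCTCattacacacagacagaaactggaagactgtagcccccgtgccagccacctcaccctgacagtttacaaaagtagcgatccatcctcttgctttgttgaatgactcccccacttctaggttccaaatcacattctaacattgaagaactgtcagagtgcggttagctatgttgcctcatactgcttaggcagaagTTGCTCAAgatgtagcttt
The C/EBP motif is held by 9.56% of 32851 mouse promoters of this length and by 6 of the 9 members that have a promoter in the table. The PU.1 core is held by 2.44% of promoters and 3 members, and the TATA box by 12.4% and 2 members. C/EBP factors and PU.1 are regulators of granulocyte development. A match describes letters and is no evidence of binding.

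The Mmp8 log2 ratios of the vehicle mice were 1.47, 0.96, 0.76, 1.04 and 0.68. At the low dose they were 1.01, 2.06, 1.79 and 0.81, so that 2 of the 4 mice exceeded every vehicle mouse. At the medium dose they were 1.76, 1.76, 1.29, 2.27 and 1.73. At the high dose they were 2.13, 2.27, 2.01 and 1.45. The medium and high groups each overlapped the vehicle group through 1 mouse, because vehicle mouse 1 was the highest control, and 9 of 13 exposed mice exceeded every vehicle mouse.

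Mmp8 was 1.35-fold the vehicle level at the low dose (log2 fold change 0.43, SE 0.23), which did not pass limma's test at an adjusted p of 0.675. It was 1.72-fold higher at the medium dose (log2 fold change 0.78, SE 0.22), with an adjusted p of 0.0496 by limma. At the high dose it was 1.98-fold higher (log2 fold change 0.98, SE 0.23; limma, adjusted p = 0.0157). The rise at the high dose was of similar size within each slide, at 0.99, 1.11 and 0.77 log2 units from 2, 1 and 1 high-dose mice, and the medium dose gave 0.55, 0.88 and 1.05. The low-dose differences within slides were 0.32, 0.88 and 0.13.

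The doses themselves were not separated. High exceeded low by 0.55 log2 units (SE 0.24), with a limma adjusted p of 0.706, and high exceeded medium by 0.20 (SE 0.23; limma, adjusted p = 1). No member was called in any of the 3 comparisons between doses, and Mmp8 for high against low was the 1 member at an unadjusted p under 0.05 by limma. Of all probes, 0.0449% were called for high against low and 0 for the other two. At an unadjusted p under 0.05, limma counted 6.71% of probes for high against low, 4.96% for medium against low and 3.74% for high against medium.

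The reference RNA held little Mmp8, since its Cy3 signal was well above background on 0 of 18 arrays, whereas Cy5 was well above on all 18. The Cy5 intensity above local background averaged 88.6 units in vehicle mice, 145 in low, 204 in medium and 256 in high-dose mice. These intensities were not normalized between arrays, whose median Cy5 over all spots ran from 110 to 142 units. The medium-dose call was close to the threshold and was kept in 7 of 18 fits that each left out 1 mouse: with Cy5 alone, with the deposited log2 ratios or with scaled arrays its adjusted p by limma was 0.0582, 0.0511 and 0.0632. With the scanner software's ratios or with median centring, limma's adjusted p at the high dose was 0.0975 and 0.123, and leaving out high-dose mouse 16 or 17 gave 0.0622 or 0.0692.

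**Figure D2:**
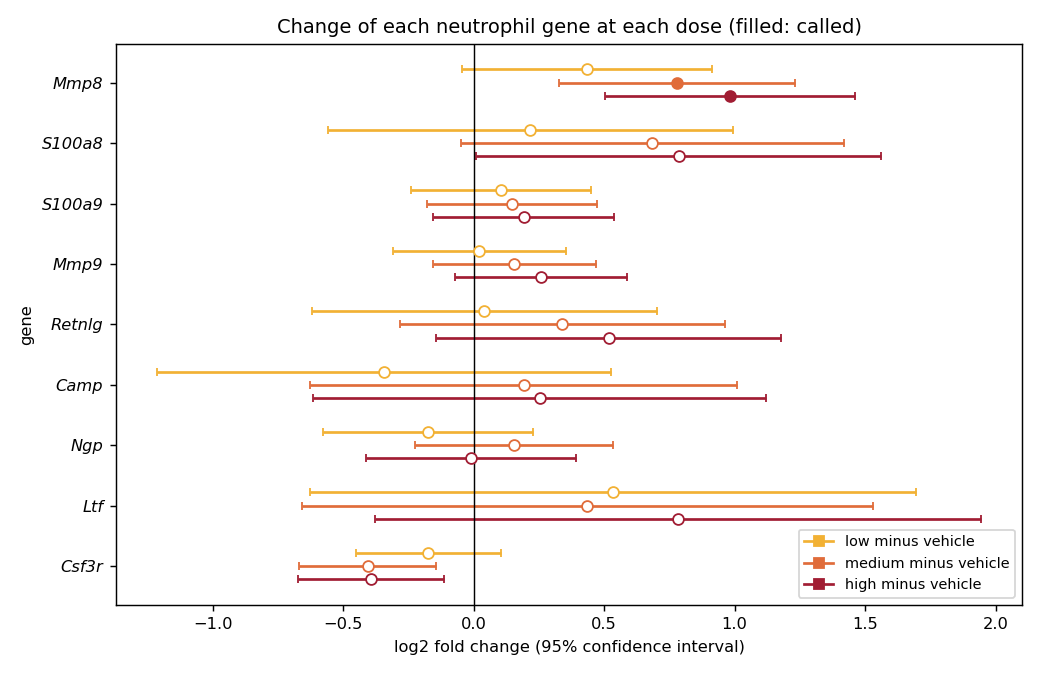
Log2 fold change over vehicle (horizontal axis) of 9 neutrophil genes by dose group, with 95% confidence intervals from the limma fit. Filled points were called, which holds for Mmp8 at 0.78 (medium) and 0.98 (high). The S100a8 points at 0.69 and 0.79 carry wider intervals.

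S100a8 and S100a9 encode the subunits of calprotectin, a calcium- and zinc-binding complex that fills neutrophil cytoplasm and is released as an alarmin. Their promoters are shown because both genes lie beside each other in the genome and moved together between mice.
S100a8, GRCm38.p6 chr3:90668821-90669070, + strand: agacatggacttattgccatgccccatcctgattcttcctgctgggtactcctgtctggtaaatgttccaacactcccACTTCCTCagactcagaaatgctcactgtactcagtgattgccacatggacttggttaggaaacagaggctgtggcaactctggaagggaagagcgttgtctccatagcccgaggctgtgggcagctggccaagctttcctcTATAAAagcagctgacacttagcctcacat
S100a9, GRCm38.p6 chr3:90695722-90695971, - strand: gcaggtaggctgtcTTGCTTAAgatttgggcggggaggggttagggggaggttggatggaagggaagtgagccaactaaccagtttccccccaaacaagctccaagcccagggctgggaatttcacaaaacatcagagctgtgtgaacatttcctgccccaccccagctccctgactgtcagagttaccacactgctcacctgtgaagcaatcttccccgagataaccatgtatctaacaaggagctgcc
The windows shared no motif of the 3: that of S100a8 held a PU.1 core and a TATA box, and that of S100a9 a C/EBP motif.

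S100a8 log2 ratios were 2.27, 2.52, 2.82, 1.53 and 1.60 in vehicle mice and 1.12, 2.50, 3.31 and 2.54 at the low dose. Medium-dose mice had 2.77, 2.53, 2.12, 3.20 and 3.56, and high-dose mice 2.64, 2.47, 3.93 and 2.70. All groups overlapped the vehicle group, and the lowest mouse of all was at the low dose, whereas the highest was at the high dose. The differences from vehicle were 0.22 (SE 0.37), 0.69 (SE 0.35) and 0.79 (SE 0.37) log2 units from low to high. By limma the high-dose difference had an unadjusted p of 0.0477 and an adjusted p of 0.31, so it was not called. It was above 0 within each slide, at 0.16, 1.75 and 1.09, and 1.75 came from high-dose mouse 18 alone.

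S100a9 log2 ratios covered 6.71 to 7.41 in vehicle mice, 6.73 to 7.53 in low, 6.84 to 7.54 in medium and 7.12 to 7.54 in high-dose mice. The groups lay over each other, and the differences from vehicle were 0.11, 0.15 and 0.19 log2 units with limma adjusted p of 0.93, 0.759 and 0.666. The Cy3 intensity of the S100a9 probe, which measures the same reference RNA on each array, ran from 128.5 to 389.5 units and had means of 176, 199, 244 and 263 from vehicle to high dose. Over the 18 arrays its log2 Cy3 and Cy5 intensities had a Pearson r of 0.79. Cy5 alone gave 0.23, 0.56 and 0.70 log2 units over vehicle, and the scanner software's ratios gave -0.01, -0.05 and -0.06, none of them called. The sign of the S100a9 difference therefore differed between these processings.

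Retnlg, a resistin-like protein secreted by neutrophils and marrow cells, covered 0.88 to 2.70 in vehicle mice and 2.03 to 3.07 at the high dose. Every high-dose mouse lay above 3 of the 5 vehicle mice, and the differences of 0.04, 0.34 and 0.52 log2 units (SE 0.32, 0.30 and 0.32) were not called. Mmp9, gelatinase B, which cleaves basement membrane collagen and gelatin, covered -1.87 to -1.32 in vehicle mice. At the high dose 3 mice lay within that range, from -1.66 to -1.5, and mouse 18 stood apart at -0.70. The Mmp9 differences of 0.02, 0.16 and 0.26 log2 units (SE 0.16, 0.15 and 0.16) did not pass limma's test.

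Camp and Ngp encode cathelicidin and neutrophilic granule protein, cathelin-like proteins that are made by myelocytes in the marrow and packed into specific granules. They are shown because they, too, rose and fell together between mice.
Camp, GRCm38.p6 chr9:109849457-109849706, - strand: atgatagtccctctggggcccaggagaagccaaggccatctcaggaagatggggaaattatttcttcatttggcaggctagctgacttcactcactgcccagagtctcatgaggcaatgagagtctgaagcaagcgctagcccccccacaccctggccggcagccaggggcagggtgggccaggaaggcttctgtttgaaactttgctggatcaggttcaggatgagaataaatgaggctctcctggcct
Ngp, GRCm38.p6 chr9:110419558-110419807, + strand: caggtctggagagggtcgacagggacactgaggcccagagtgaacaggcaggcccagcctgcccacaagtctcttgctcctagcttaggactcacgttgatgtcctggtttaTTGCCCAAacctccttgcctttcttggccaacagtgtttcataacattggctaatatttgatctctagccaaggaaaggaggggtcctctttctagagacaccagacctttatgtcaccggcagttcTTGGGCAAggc
The Ngp window held 2 C/EBP motifs and the Camp window none of the 3 motifs.

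Camp log2 ratios were 2.35, 0.97, 1.05, 0.58 and 0.17 in vehicle mice, and 0.64, 0.60, 0.75 and 0.73 at the low dose. Medium-dose mice had 2.36, 2.00, 0.16, 0.90 and 0.66, and high-dose mice 1.57, 0.52, 0.77 and 2.24. Vehicle mouse 1, medium mice 11 and 12 and high-dose mice 16 and 20 were the high mice, so high and low Camp occurred with and without exposure. The differences from vehicle were -0.34 (SE 0.42), 0.19 (SE 0.39) and 0.25 (SE 0.42) log2 units, none called. The second Camp probe gave -0.47, 0.02 and 0.06 and was high in the same mice 1, 11, 12 and 20.

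Ngp was near background: its Cy5 signal was well above background in 1 of 5 vehicle, 0 of 4 low, 2 of 5 medium and 2 of 4 high-dose mice. Its log2 ratios covered -0.08 to 1.04 in vehicle and -0.17 to 0.66 in high-dose mice, with vehicle mouse 1 the highest of all. The medium and high differences were 0.16 (SE 0.18) and -0.01 (SE 0.19) log2 units. No low-dose array measured Ngp well above background, so the low group has only an upper bound and no fold is given. Its log2 ratio differed from vehicle by -0.18 (SE 0.19; limma, adjusted p = 0.891), and without vehicle mouse 1 by 0.01 (SE 0.16; limma, adjusted p = 0.996).

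Ltf, lactoferrin, binds iron and is stored in specific granules, and it is also secreted by glandular and airway epithelium. Its log2 ratios were 2.97, 3.04, 3.66, 2.17 and 3.86 in vehicle mice. At the low dose they were 5.04, 3.37, 3.02 and 3.27. Medium-dose mice had 5.03, 2.42, 2.84, 2.84 and 4.75, and high-dose mice 3.00, 4.71, 2.84 and 5.15. In 5 of 13 exposed mice, found at all 3 doses, Ltf lay between 4.71 and 5.15 and above every vehicle mouse, while the other 8 lay between 2.42 and 3.37, inside the vehicle range. The Cy3 signal of Ltf, 54 to 83 units, was well above background on only 3 of 18 arrays, and Cy5 on all 18. Over the 18 arrays the log2 Cy3 and Cy5 intensities of Ltf had a Pearson r of 0.73. The part of the reference channel in this split was not tested.

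The Ltf group differences of 0.53, 0.44 and 0.78 log2 units came with the largest standard errors of the 9 members, 0.56, 0.53 and 0.56, and were not called (limma, adjusted p = 0.881, 0.795 and 0.568). The gene whose deviations from the group means were most like those of Ltf was Muc5b, the gel-forming mucin of airway secretory cells, at a Pearson r of 0.90 over 18 mice among 17391 probes. The 5 mice with high Ltf had Muc5b log2 ratios of 3.55 to 4.75, and the other 13 mice had 1.09 to 3.88, with vehicle mouse 5 at 3.88. Muc5b itself was not called (limma, log2 fold change 0.13, SE 0.70, adjusted p = 0.962 at the high dose). Muc5b was named after its values were seen.

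**Figure D3:**
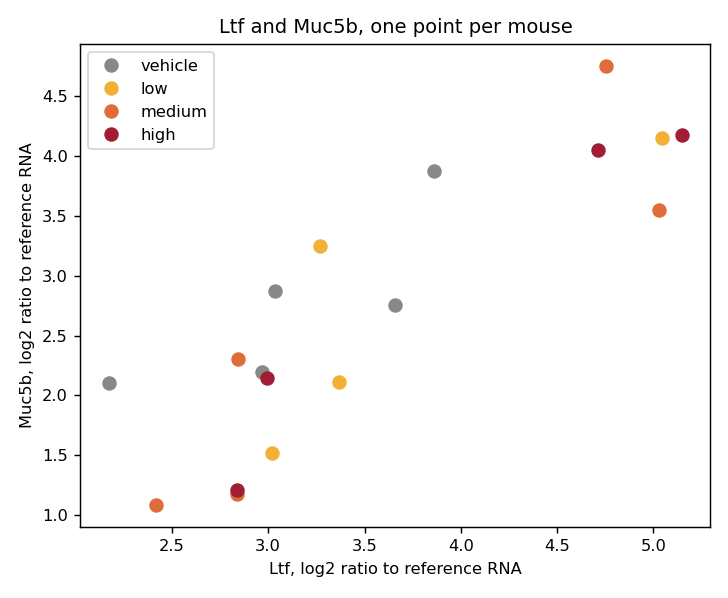
Log2 ratio of Ltf (horizontal axis) against that of Muc5b (vertical axis), 1 point per mouse, coloured by dose group. The 5 exposed mice with Ltf above 4.7 also have Muc5b above 3.5, and they come from all 3 doses.

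Csf3r, the receptor for granulocyte colony-stimulating factor, is carried by neutrophils and their precursors. Its log2 ratios were 1.48, 1.57, 1.63, 1.62 and 1.66 in vehicle mice and 1.58, 1.22, 1.62 and 1.26 at the low dose. Medium-dose mice had 0.81, 1.31, 1.64, 1.26 and 0.92, and high-dose mice 1.06, 1.32, 1.03 and 1.39. All 4 high-dose mice lay below all vehicle mice, which held for 4.33% of all probes, and 10 of 13 exposed mice did.

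The Csf3r differences were -0.17 (SE 0.13), -0.41 (SE 0.13) and -0.39 (SE 0.13) log2 units. They were below 0 within every slide at each dose but were not called, with limma adjusted p of 0.808, 0.083 and 0.113. The Csf3r probe was bright in both channels, with Cy3 intensities of 22481 to 32270 units for reference RNA of cell lines. Its deviations from the group means followed those of Mtif2, Slc10a1 and Kctd14 at r of 0.99, 0.98 and 0.98, higher than the best r of any other member. Whether the probe measured Csf3r alone was not tested.

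The probe that the study's list names Ly6g had log2 ratios of 1.08, 0.80, 0.85, 0.74 and 0.99 in vehicle mice and 1.15, 1.30, 1.09 and 1.35 at the low dose. Medium-dose mice had 2.22, 1.68, 1.35, 1.29 and 1.58, and high-dose mice 1.56, 1.41, 1.41 and 1.1. All 13 exposed mice exceeded all vehicle mice, which held for 0.451% of all probes. The differences were 0.33 (SE 0.14), 0.73 (SE 0.13) and 0.48 (SE 0.14) log2 units, with limma adjusted p of 0.556, 0.00301 and 0.0603, so the medium dose was called. Without medium mouse 11, the highest, the medium difference was 0.58, under the fold limit, with a limma adjusted p of 0.00387.

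Between mice of the same group the members did not form a single set. Over 36 pairs of members, the Pearson r of the deviations from the group means (18 mice on the same arrays, given as a description) ran from -0.47 to 0.88 with a median of 0.06, and 7 pairs exceeded 0.5. S100a8, S100a9, Mmp9 and Retnlg made 6 of these 7, with r of 0.72 to 0.88. Camp with Ngp, at 0.79, was the other, and Ngp was well above background in Cy5 on only 5 of 18 arrays. Ltf exceeded 0.5 with no member, Mmp8 reached 0.47 with S100a9, and Csf3r was negative with all 8 others.

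**Figure D4:**
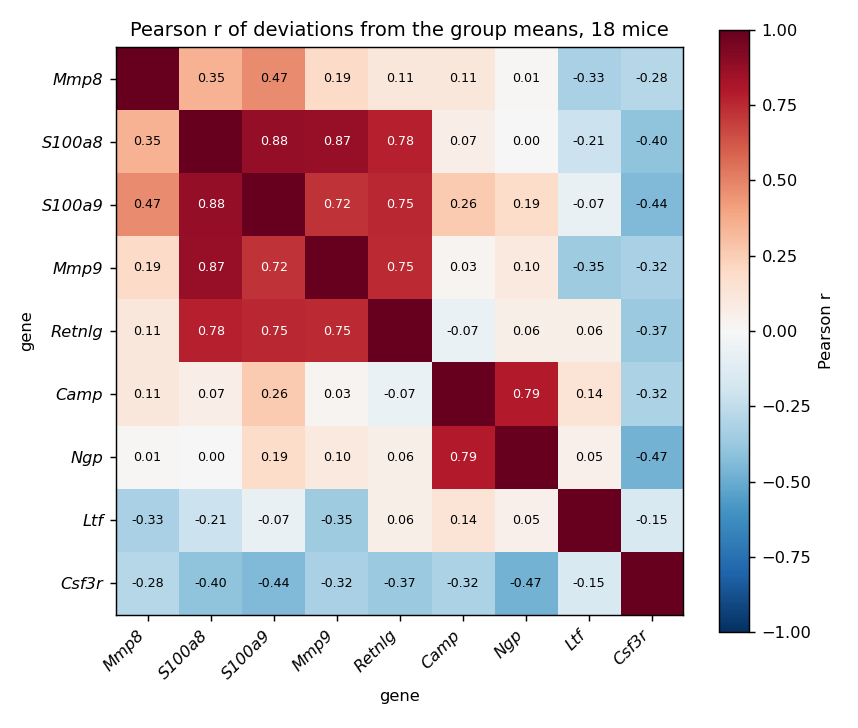
Pearson r between the 9 neutrophil genes (both axes), computed from each mouse's deviation from its group mean over 18 mice; red is positive and blue negative. S100a8, S100a9, Mmp9 and Retnlg form a block with r of 0.72 to 0.88, Camp and Ngp a pair at 0.79, and Csf3r is negative throughout.

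The genes that varied with each set differed as well. S100a8 had r of 0.85 with Clec4d and 0.78 with Cxcr2, receptors of myeloid cells and mature neutrophils. It had 0.79 with Il1b, the interleukin-1 beta gene, and 0.83 with Selplg, the selectin ligand of leukocytes. Whole lists were mixed: r with S100a8 ran from -0.17 to 0.85 for the 14 receptors (median 0.41). For the 14 mature neutrophil genes it ran from -0.44 to 0.79 (median 0.45), and for the 7 adhesion genes from -0.38 to 0.83 (median 0.34). Over 8 genes of red blood cells and their precursors, S100a8 had a median r of -0.23, and over the 9 lung genes -0.44. Camp had a median r of 0.65 with the same 8 red cell genes, among them 0.72 with Slc4a1. Ngp, well above background in Cy5 on only 5 of 18 arrays, had a median of 0.61. Vehicle mouse 1 was the highest vehicle mouse in Camp, Ngp and Slc4a1, and its weight in these r was not tested. The single genes named with an r here were picked from their lists after their values were seen. Camp also had r of 0.73 with Mpo, the highest of the 5 genes listed for the azurophil granule stage. The r of these 5 ran from -0.58 with a median of -0.25, and only 1 of them was well above background on all arrays. Mpo, myeloperoxidase, was not called (limma, log2 fold change 0.09, SE 0.09, adjusted p = 0.744 at the high dose).

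**Figure D5:**
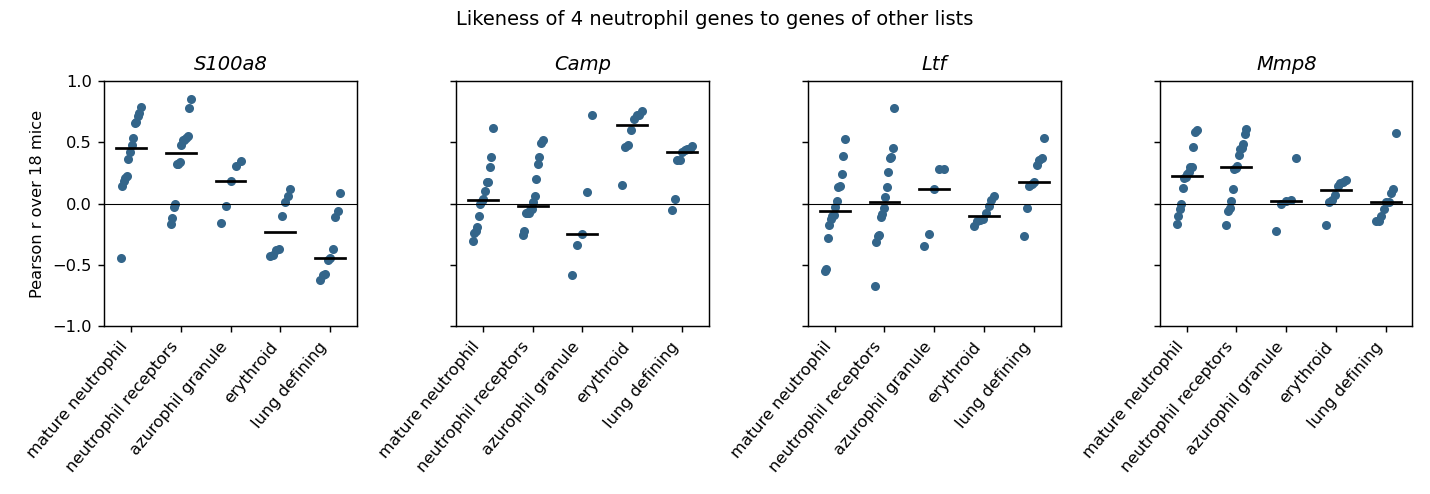
Pearson r over 18 mice (vertical axis) between S100a8, Camp, Ltf or Mmp8 and each gene of 5 lists (horizontal axis), from deviations from the group means; each point is 1 gene and each bar the median. S100a8 sits highest with mature neutrophil genes and receptors (medians 0.45 and 0.41), and Camp with red cell genes (median 0.65).

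The 10 genes outside the members whose deviations were most like the mean of the 9 were Ada, Dapp1, Hk3, F13a1, Mxd1, Itgam, Mon2, Ccl4, Tlr13 and H2-Q10, with r of 0.86 down to 0.79 among 17382 probes. Each gene entered here by its most alike probe, and for 7 of the 10 this was also its brightest. The brightest probes of Mxd1, H2-Q10 and Itgam had r of 0.37, -0.02 and -0.33, so the likeness of these genes depends on the probe. Hk3 is a hexokinase of myeloid cells, and Itgam encodes the CD11b integrin chain of neutrophils and macrophages. Of these 10, the most alike H2-Q10 probe passed the test and the fold limit at the high dose (limma, log2 fold change 0.76, adjusted p = 0.0289) and Ccl4, a chemokine, fell by 0.76 (limma, adjusted p = 0.016).

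Other neutrophil genes were read against the members. Of 14 genes of mature neutrophils with a probe, limma called 0 for low, 0 for medium and 1 for high against vehicle. Of all probes 0.0898%, 0.726% and 1.2% were called. The called gene was Stfa1, a stefin that inhibits cysteine proteases. Stfa1 had log2 ratios of 0.47 to 0.76 in vehicle mice and 1.49, 1.11, 1.80 and 1.27 in high-dose mice, without overlap, which held in this direction for 3.78% of all probes. Its difference was 0.83 log2 units (SE 0.18; limma, adjusted p = 0.00785), and it was called without each mouse in turn but not with median centring in place of loess (limma, adjusted p = 0.11). At the medium dose Stfa1 stood 0.54 higher (SE 0.17; limma, adjusted p = 0.0824). At an unadjusted p under 0.05 limma gave 1 lower gene of the 14 at the low dose, 3 higher and 1 lower at the medium, and 3 higher and 2 lower at the high, beside the 8.01%, 15.3% and 15.7% of all probes.

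None of the 5 genes listed for the azurophil granule stage was called at any dose by limma. These were the granule protein genes Mpo, Elane, Prtn3 and Ctsg, with Ms4a3. None of the 7 other specific granule genes or the 14 receptors was called at any dose by limma. At an unadjusted p under 0.05 the azurophil list held 0 genes at each dose. Only 1 of its 5 genes was well above background on all arrays, so its counts of 0 cannot tell no change from low signal. Of the specific granule genes 6 of 7 were well above background on all arrays, and of the receptors 13 of 14. At the same unadjusted p the specific granule list held 1 gene at the low dose and 0 otherwise. The receptor list held 0, 4 and 5 of 14, all higher. Of all probes 8.01%, 15.3% and 15.7% passed in either direction. In the receptor list 11 of 14 lay above vehicle at the medium dose, with a median log2 difference of 0.20, and 9 of 14 at the high dose, with 0.14. The leukotriene B4 receptor gene Ltb4r1 passed the adjusted p but not the fold limit at the high dose (log2 fold change 0.44; limma, adjusted p = 0.0367). In a separate list of 7 factors of granulocyte development limma called 0 at each dose. At the high dose 2 of 7 lay above vehicle, with a median log2 difference of -0.27. At an unadjusted p under 0.05 limma gave 1 higher and 4 lower at that dose. In this list 2 genes are named that passed the adjusted p but not the fold limit at the high dose. Cebpe, the C/EBP factor of late granulocyte development, rose by 0.38 (limma, adjusted p = 0.0264). Runx1, a transcription factor of blood cell development, fell by 0.44 (limma, adjusted p = 0.0134).

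Among 14 genes for ligands that recruit or raise neutrophils, 1 was called, and it fell. From low to high dose, limma called 0.0898%, 0.726% and 1.2% of all probes in either direction. Cxcl5, a chemokine made by alveolar epithelium that acts on Cxcr2, had log2 ratios of -2.35, -0.39, -0.02, -0.95 and -0.71 in vehicle mice. Medium-dose mice had -0.64, -3.83, -3.39, -2.46 and -2.36, and high-dose mice -3.30, -2.91, -3.09 and -2.72. All 4 high-dose mice lay below all vehicle mice, which held in this direction for 4.33% of all probes. Cxcl5 fell by 1.65 log2 units at the medium dose (SE 0.46; limma, adjusted p = 0.0486) and fell by 2.12 at the high dose (SE 0.49; limma, adjusted p = 0.0136), while the low-dose difference of -1.88 (SE 0.49) had an adjusted p of 0.165 by limma. The medium-dose call was lost with 14 of the 18 mice left out in turn, and the high-dose call without high-dose mouse 16 (limma, adjusted p = 0.0533).

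Of 10 genes for S100 relatives and receptors of S100a8 and S100a9, limma called 1 at the medium dose, against 0.726% of all probes. This was S100a6, another calcium-binding S100 protein, which fell by 0.83 log2 units (SE 0.18, limma, adjusted p = 0.0113). Its high-dose difference was -0.60 (SE 0.19; limma, adjusted p = 0.0847). Among 7 relatives and inhibitors of the gelatinases, limma called 1 at the high dose, against 1.2% of all probes. This was Mmp14, a membrane-bound collagenase, which fell by 0.62 (SE 0.16, limma, adjusted p = 0.0352). In the adhesion list of 7, Icam1, the endothelial ligand of leukocyte integrins, rose by 0.47 at the medium dose under the fold limit (limma, adjusted p = 0.0207).

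Of 13 lymphocyte genes 3 were called at some dose, and their part in the results above was not tested. In the B cell list 2 of 5 genes were called at the medium dose, Cd79b and Ms4a1 at 0.70 log2 units each (limma, adjusted p = 0.0419 and 0.0258), and 0 at the high dose, where Cd79b stood at 0.54. The summed Cy5 intensity of the list, not normalized between arrays, ran from 3795 to 8064 units in vehicle and 6606 to 14062 in medium-dose mice. In the T and NK cell list 1 of 8 was called at the high dose, where 1.2% of all probes were. This was Gzma, a cytotoxic granule protease, which fell by 2.25 (SE 0.41, limma, adjusted p = 0.00208). At each dose 2 of 8 lay above vehicle, and Cd8a stood 0.21 higher at the high dose. At an unadjusted p under 0.05 limma gave 1 higher at each dose, and 1, 3 and 5 lower from low to high. The summed intensity of the T and NK cell list, also not normalized, was 5559 to 12893 units in vehicle and 3712 to 5809 in high-dose mice. No gene of the monocyte and macrophage, red cell, platelet, or eosinophil, basophil and mast cell lists was called by limma at any dose. At an unadjusted p under 0.05 limma gave, from low to high, 0, 1 and 1 of 7 monocyte and macrophage genes and 1, 1 and 0 of 8 red cell genes. It gave 0, 2 and 1 of 5 platelet genes. Of the 8 eosinophil, basophil and mast cell genes it gave 0, 0 and 3, the 3 all higher. Of all probes 8.01%, 15.3% and 15.7% passed.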

How the data were processed

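Lung RNA of 18 mice was analysed on 18 two-colour Agilent arrays, each with Cy5-labelled lung and Cy3-labelled reference RNA and no dye swap. The authors deposited scanner files with the median intensity of both channels, neither background-subtracted nor normalized, and a log10 ratio that the scanner software had corrected for background and dye. They also deposited a table of normalized log2 ratios of the same arrays.

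From the intensities, log2 ratios without background subtraction were normalized by loess within arrays (limma 3.58.1 in R 4.3.3). Control spots and the 215 to 307 outlier spots of each array were dropped and repeat spots averaged, so that 86 probes lacked a value somewhere. One limma fit held the 4 groups, doses were compared with vehicle and with each other, and p-values were adjusted by Benjamini-Hochberg within a comparison. The authors' MAANOVA test was not run, and limma stands in for it. Probes were named through RefSeq accessions (27235 probes), and the brightest probe by mean log2 intensity stands for a gene. The fit was tested on simulated data. The number of arrays limits the precision, and nothing tells litters or cages of the mice.

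The members and the gene lists were chosen with earlier results of these data known. From the lists, genes called in some comparison were named, with the 3 of each list that had the lowest p in the exposed mean, and the 10 genes most alike to the members' mean deviation. Some genes of the lists are not reported here. The alternatives covered background, ratios, centring, scaling, Cy5 alone, slide, slide with row (chosen after seeing the data), probe choice, the dim-probe filter, the fold limit and each mouse left out.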

Additional observations from a re-analysis of the deposited data

Results flagged for a closer look

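High-dose mouse 18 stood apart from its group in S100a8, with a log2 ratio of 3.93 where the other 3 mice had 2.47 to 2.70. It also stood apart in Mmp9, at -0.70 against -1.66 to -1.5. In each case the gap to the nearest mouse, over the range of the group, was 0.846 and 0.839. These were the 2 flags among 40 combinations of probe and group, and chance flags about 1 in 20.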

How the results depend on the processing

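The count of called members stayed at 0 at the low dose and between doses under every alternative run. At the medium dose it was 0 with the scanner software's ratios, the deposited value table, median centring, scale normalization, Cy5 alone and the mean over all probes of a gene. At the high dose and in the mean of the exposed groups it was 0 with the scanner software's ratios and with median centring. Leaving out each mouse gave 0 to 1 at the medium dose, with 0 without vehicle mouse 2, 3, 4 or 5, medium mouse 11, 12, 14 or 15, or high mouse 16, 17 or 18. It gave 0 to 1 at the high dose, with 0 without high mouse 16 or 17, and 0 to 1 in the exposed mean, with 0 without vehicle mouse 2, 3 or 5. Over the alternatives with all mice the Mmp8 log2 fold change was 0.71 to 1.31 at the medium dose, with limma adjusted p of 0.0139 to 0.398, and 0.91 to 1.35 at the high dose, with 0.00205 to 0.123. With slide as a block its limma adjusted p was 0.0222 (medium) and 0.00565 (high), and with slide and slide row together as a block, an alternative chosen after seeing the data, 0.0139 and 0.00205. Of single values of members with all mice, 392 kept direction and call, 10 lost the call and 17 uncalled ones changed sign, among them S100a9 in all 4 comparisons with the scanner software's ratios. With a mouse left out the counts were 603, 16 and 29. Among the other genes with a mouse left out, the Cd79b call at the medium dose was lost with 8 of 18, Mmp14 at the high dose with 6 and Ms4a1 at the medium dose with 4, and those of Stfa1 and Gzma at the high dose and S100a6 at the medium dose with 0. Of the 11 medium- and high-dose calls of members, listed genes and the Ly6g-named probe, median centring ended all 11, where it called 32 and 80 probes in place of 404 and 670. Their limma adjusted p then included 0.11 for Stfa1, 0.175 for Gzma, 0.996 for S100a6, 0.379 for Cxcl5 at the high dose and 0.0895 for the Ly6g-named probe. The scanner software's ratios ended 8 of the 11, among them S100a6 (limma, adjusted p = 0.0559) and Cxcl5 at the high dose (0.108). Cy5 alone and a fit of only the groups compared ended 4 each, slide as a block 2, and normexp, Aquantile and the filter on dim probes 0. Over the alternatives with all mice the Cxcl5 call at the medium dose was lost in 7 of 12 and that of Mmp14 at the high dose in 5 of 12. Ngp was left out by the filter on dim probes, Aquantile normalization leaves log ratios unchanged by construction, and the exposed mean was not fitted for the groups compared alone. The cause of these changes was not tested. No paired analysis was possible because the groups share no mouse number, and the slide and row block above matches array positions, not animals.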

Other observations

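Single mice stood low or high across several members. Vehicle mouse 4 was the lowest of its group in 6 of 9 members, medium mouse 13 in 7 of 9 and high-dose mouse 17 in 5 of 9. Vehicle mouse 1 was the highest vehicle mouse in Camp, Ngp and Mmp8.

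The genes most alike to Mmp8 by deviation from the group means were Dmac2l, Arhgap30 and Ubac2, with r of 0.90, 0.89 and 0.86 over 18 mice. Those most alike to Retnlg were Pstpip1, Lst1 and Rpsa, with r of 0.92, 0.91 and 0.91, of which Pstpip1 and Lst1 are leukocyte genes. For Camp they were Msantd1, Plxna2 and Tspo2, with r of 0.87, 0.81 and 0.81, and Tspo2 is a gene of red cell precursors. These genes were named after their values were seen, from 17391 probes.

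Marco, a scavenger receptor of alveolar macrophages, had a difference of 1.25 log2 units at the high dose (SE 0.46; limma, adjusted p = 0.152) and was not called. Without vehicle mouse 3 it was 1.70 (SE 0.38; limma, adjusted p = 0.0138).

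Among genes of the lists with the lowest p in the mean of the exposed groups, Lcn2, a specific granule protein that epithelium also secretes, had a difference of -0.33 log2 units (limma, adjusted p = 0.47), and Timp1, an inhibitor of the gelatinases, -0.70 (limma, adjusted p = 0.179). Neither was called, and both values rested largely on vehicle mouse 3. Without it the differences were -0.07 for Lcn2 (limma, adjusted p = 0.919) and -0.22 for Timp1 (limma, adjusted p = 0.511). Fits without 1 mouse were added for these genes after seeing the data.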
